A study of Sus scrofa with 6 samples.

Results

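The imprinted DLK1-DIO3 cluster was followed in the left atrium (LA) of paced and sham pigs through the 20 array probes that carry its miRNAs. The probes were taken by name from a list of miRNAs of this region, out of the 322 pig miRNA probes of the array, and they stand for 17 miRNA precursors. Of 14 further miRNAs listed for the region, none had a probe on the array. Total RNA of the LA of 3 sham and 3 paced pigs was hybridized to 1-colour (Cy3) miRNA arrays, with 1 array per animal. The paced group, called PAF in the labels, received repeated bursts of rapid pacing in the right atrium after esmolol, a beta blocker, as a model of paroxysmal atrial fibrillation. The sham group was operated on without burst pacing, and tissue was taken on the following day in both groups. No animal carried a genetic change. The methods describe Large White pigs of 3 months, with 3 animals per group arrayed, while the labels speak of neonatal piglets, and the animals' sex was not given in the sources used here. A piece of LA holds muscle, vessels, connective tissue and blood, so that fewer cells of a type and less RNA per cell cannot be told apart.

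The DLK1-DIO3 region is one of the largest groups of miRNA genes in placental mammals, and it is imprinted. The protein-coding genes DLK1, a regulator of cell differentiation, RTL1, a retrotransposon-derived gene needed in the placenta, and DIO3, the enzyme that inactivates thyroid hormone, are expressed from the paternal chromosome. The long noncoding RNA MEG3 and the miRNAs are made from the maternal chromosome, and the miRNAs antisense to RTL1 can cleave its mRNA. These miRNAs are known for high levels in the embryo, placenta and brain and for lower levels in most adult tissues.

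In the RefSeq gene table of the Sscrofa11.1 assembly, 7 of the 17 precursors had a gene. On chromosome 7 the genes follow the order DLK1, MEG3, MIR493 and RTL1, and MIR127, MIR432 and MIR136 lie within RTL1. MIR376C, MIR376A and MIR381 were listed without a chromosome. The deposited files name no genome build, and no coordinates are given.

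The array's target sequences are shown first, since a hybridization signal belongs to a sequence and not to a name. Capitals mark the seed, bases 2 to 8 counted from the 5′ end. The first lines show the only members with a signal well above the background on any array.
miR-127: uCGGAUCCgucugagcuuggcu
miR-299: aUGGUUUAccgucccacauac
miR-411: aUGUAACAcgguccacuaac

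The next lines show the members with the lowest p values in the comparison of paced and sham animals, together with the other arm of the miR-432 precursor.
miR-381: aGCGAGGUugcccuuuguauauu
miR-323: gCACAUUAcacggucgaccucu
miR-432-3p: uGGAUGGCuccuccauggcu
miR-432-5p: uCUUGGAGuaggucauugggu

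The miR-376 group is shown because its members could share hybridization. In mammals this group is known for RNA editing.
miR-376a-3p: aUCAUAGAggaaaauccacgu
miR-376a-5p: gUAGAUUCuccuucuaugaguac
miR-376b: gUGGCUAUuccuucuauguuua
miR-376c: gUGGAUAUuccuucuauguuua

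All 20 members had different seeds, and no other probe of the array had the seed of a member. The targets of miR-376b and miR-376c differed at a single base, C5A, counted from the 5′ end with the base of miR-376b first. This base lies in the seed. The miR-376b and miR-376c targets also shared a run of 10 bases with miR-376a-5p, and no run of 8 bases or more with miR-376a-3p. Outside this group, the longest run shared by 2 members was that of miR-411 and miR-758, here in capitals, where it forms the 3′ end of both.
miR-411: auguaacacGGUCCACUAAC
miR-758: uuugugaccuGGUCCACUAAC

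This run had 11 bases. The signals of miR-376b and miR-376c, and those of miR-411 and miR-758, can therefore not be taken as fully separate measurements. Of the 20 probes, 6 had a name with an arm and 14 had none. The members' targets were 20 to 23 bases long, with a median GC content of 46.5% (23.8% to 68.2%), against 47.6% over all probes.

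Every probe was printed as 9 repeat spots. The 786 empty spots of an array served as its background. A probe counted as well above background where its median spot was brighter than the empty-spot median plus 3 times their SD. The empty-spot median was 64.7 to 214.1 scanner units on the sham arrays and 242.5 to 399 on the paced arrays, with every paced array above every sham array. The SD of the empty spots was 60.7, 8.35 and 16.1 units in sham replicates 1, 2 and 3. It was 50.2, 30.8 and 34.2 units in the paced replicates, so that the threshold differed between arrays. Of all probes, 104 to 175 per array were well above background. On sham replicate 1 the empty spots of the first 16 rows had a median of 97.3 units, 0.438 times that of its other rows, while on the other arrays this ratio was 0.889 to 1.18. The tissue was checked against marker lists. Of 7 probes for cardiac muscle miRNAs, 5 were well above background on all 6 arrays, as were all 5 probes of the fibroblast list, and none of the 6 probes for epithelial, liver and neural miRNAs was so on any array. The summed intensity of the 4 smooth muscle probes was 19625 to 23393 in sham and 17493 to 19441 in paced animals. That of the 3 red blood cell probes was 12427 to 17302 and 8419 to 12528. In each of these lists, 1 probe was within the background on every array. For cardiac muscle the sums were 61357 to 63919 and 58995 to 69902, and for fibroblasts 23302 to 25447 and 21598 to 26679. For endothelium they were 8521 to 10179 and 8284 to 9590, and for leukocytes 1289 to 1593 and 1297 to 1671. Of the lists given here, all but smooth muscle overlapped between the groups. The part of these cells in the values below was not tested.

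Most of the 20 cluster probes gave no signal above background in the LA. Any miRNA or arm of the region without a probe was not measured. Of the 20 members, 17 (85.0%) stayed within the background on each of the 6 arrays, against 44.4% of all 322 probes. None of the members was well above background on all arrays, whereas 32.3% of all probes were. The number of members well above background was 2, 2 and 3 on the arrays of sham replicates 1, 2 and 3, and 0, 2 and 2 on those of paced replicates 1, 2 and 3. The threshold differed between arrays with the SD of the empty spots, so these counts are not read as a difference between the groups. A signal within the background does not show that a miRNA was absent.

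**Figure D1:**
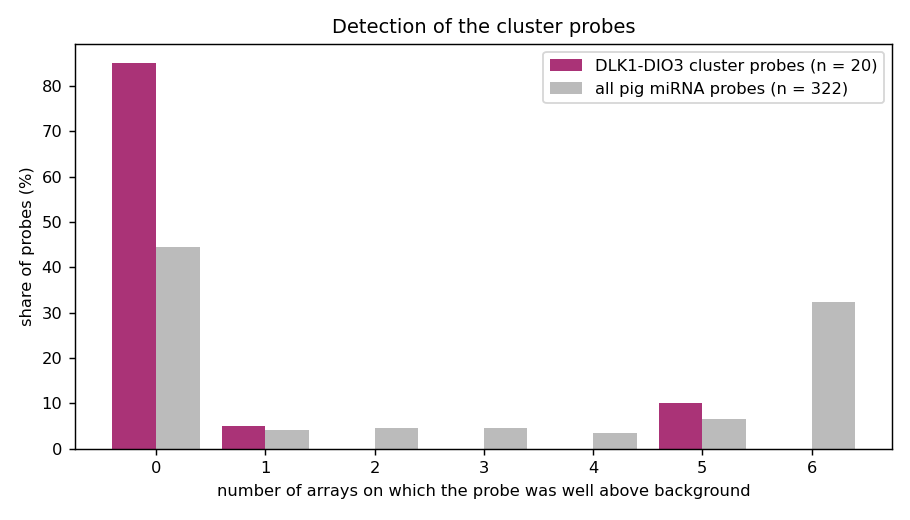
Share of probes, in percent, by the number of arrays (0 to 6) on which they were well above background, for the 20 cluster probes and all 322 probes. Of the cluster probes, 85.0% were so on no array and none on all 6.

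miR-127 was among the 3 members with a signal. It is transcribed antisense to RTL1 and targets its mRNA. Its scanner signal exceeded the empty-spot median by 4.06, 14.99 and 12.1 SD of the empty spots in sham replicates 1, 2 and 3. Among the paced replicates the excess was 1.98, 5.29 and 5.04 SD, so that paced replicate 1 alone missed the threshold. In scanner units the excess was 246, 125 and 196 in the sham and 99.6, 163 and 172 in the paced replicates. The highest SD score, in sham replicate 2, went with the lowest excess in units among the sham arrays. Scores in SD are therefore not compared between arrays.

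miR-299 followed the same pattern of detection. Its excess was 3.00, 12.7 and 9.92 SD in the sham replicates and 0.946, 5.45 and 3.89 SD in the paced replicates. miR-411 exceeded the threshold only in sham replicate 3, at 3.78 SD, with 0.555 and 2.78 SD in the other sham animals. The paced replicates stood at -0.00673, 2.73 and 1.82 SD.

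For the other 17 members the excess lay between -2.28 and 2.27 SD over all arrays. Many of their spots were dimmer than the empty spots. The number of members whose signal was below the empty-spot median was 16, 8 and 7 on the sham arrays and 18, 1 and 17 on the paced arrays. Over all 322 probes the share below the empty-spot median was 42.2%, 20.5% and 15.2% on the sham arrays and 58.1%, 3.11% and 38.8% on the paced arrays, in each case a smaller share than among the 20 members. With the 15 closest empty spots as the background, miR-127 was well above background on all 6 arrays and miR-299 on 5. miR-411 was then so in 2 sham animals and 1 paced animal, miR-381, miR-382 and miR-758 in 1 sham animal each, and 14 members on no array.

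**Figure D2:**
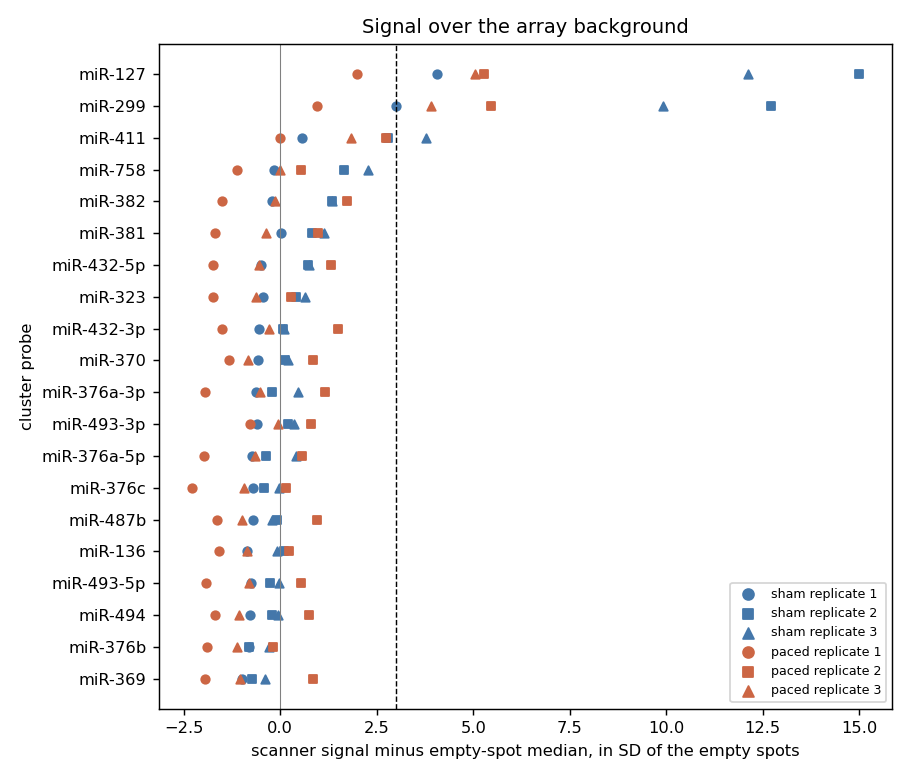
Scanner signal of each cluster probe minus the empty-spot median of its array, in SD of the empty spots, with 1 point per array. This SD differed between arrays. The dashed line marks the threshold of 3 SD, which miR-127, miR-299 and miR-411 passed on 5, 5 and 1 arrays.

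Whether pacing altered these miRNAs was examined in the normalized values. The scanner values were background-corrected, quantile-normalized between arrays and transformed to log2, and the groups were then set against each other in limma, in 1 fit of all 322 probes. None of the 20 members changed at an adjusted p of 0.05. At the study's unadjusted threshold of 0.05 the count was 3, with 1 member above and 2 below the sham animals, and none of these 3 was well above background on any array. Over all probes the share at this threshold was 10.6% (3.42% higher and 7.14% lower), and after adjustment it was 0%. The lowest adjusted p of a member was 0.309. The median difference between paced and sham animals was 0.03 on the log2 scale over the members and 0.00 over all probes. By sign alone, 11 members were higher and 9 lower.

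For miR-127 the normalized log2 value was 8.23, 8.15 and 8.39 in sham replicates 1, 2 and 3. The paced replicates read 8.61, 7.92 and 8.23. The paced values spread on both sides of the sham values, with paced replicate 1 highest and paced replicate 2 lowest of all. The sham mean was 8.26 ± 0.12 (SD, n = 3) and the paced mean 8.25 ± 0.34 (SD, n = 3), which are apart by -0.01 (SE 0.17, 95% interval -0.42 to 0.40, limma, adjusted p = 0.996). If the signal above the offset of 50 added in the background correction were 2 times the sham mean, this scale would show about 0.88. This lies outside the interval, but the signal above the offset still holds background. Members within the background also read above the offset, at 6.45 to 7.29. A doubling of the miRNA alone would therefore read as less than 0.88, and its size was not computed. When each array was scaled by its detected probes, the difference was 0.26, while the median probe was shifted by 0.44, so that relative to this shift miR-127 stood at -0.18. The authors' processed intensities of miR-127 averaged 182 ± 28.5 (SD, n = 3) for sham and 195 ± 59.9 (SD, n = 3) for paced animals, with the same order of the paced animals.

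For miR-299 the values were 8.04, 8.04 and 8.21 in the sham replicates and 8.21, 7.84 and 8.003 in the paced replicates. The groups overlapped, and paced replicate 1 was again the highest and paced replicate 2 the lowest of its group. The difference was -0.08 (SE 0.11, 95% interval -0.34 to 0.19, adjusted p = 0.837). A signal above the offset 2 times the sham mean would read as about 0.86, and a doubling of the miRNA alone again as less. Scaled to the detected probes, it differed by 0.28, which is -0.16 relative to the same shift.

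For miR-411 the values were 7.16, 7.28 and 7.59 in the sham replicates and 7.76, 7.38 and 7.60 in the paced replicates. The groups overlapped. The difference of 0.24 (SE 0.14, 95% interval -0.10 to 0.58, adjusted p = 0.580) was positive under all alternatives in which it was tested, and with the scaling to the detected probes it was 0.77 (adjusted p = 0.000680). That scaling called 53.1% of all probes after adjustment, and relative to the shift of 0.44 miR-411 stood at 0.33. Since miR-411 was not well above background in any paced animal, only an upper limit of its level can be had there, and no fold is given. On sham replicate 1, its 3 spots in the dim first rows read 158 to 172 units and its other 6 spots 245 to 256. Without the spots of these rows on all arrays, an alternative added once the values had been seen, sham replicate 1 read 7.42 and the difference was 0.13 (SE 0.11, adjusted p = 0.678).

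The 3 members with a signal were ordered alike in the paced animals, with replicate 1 above replicate 3 above replicate 2. This order was not particular to them. It was also seen in members within the background, such as miR-323 and miR-493-3p, and in probes outside the cluster. Other members, such as miR-381, had another order, and the share over all probes was not computed. Paced replicate 1 was also the array with the highest empty-spot signal and the fewest probes above background. The part of this background in the order was not tested. The SD within the groups, pooled over both, was 0.26 for miR-127, 0.15 for miR-299 and 0.21 for miR-411. Of the 20 members, 16 had an SD below the median of all probes (0.12), and none of these was well above background on any array.

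**Figure D3:**
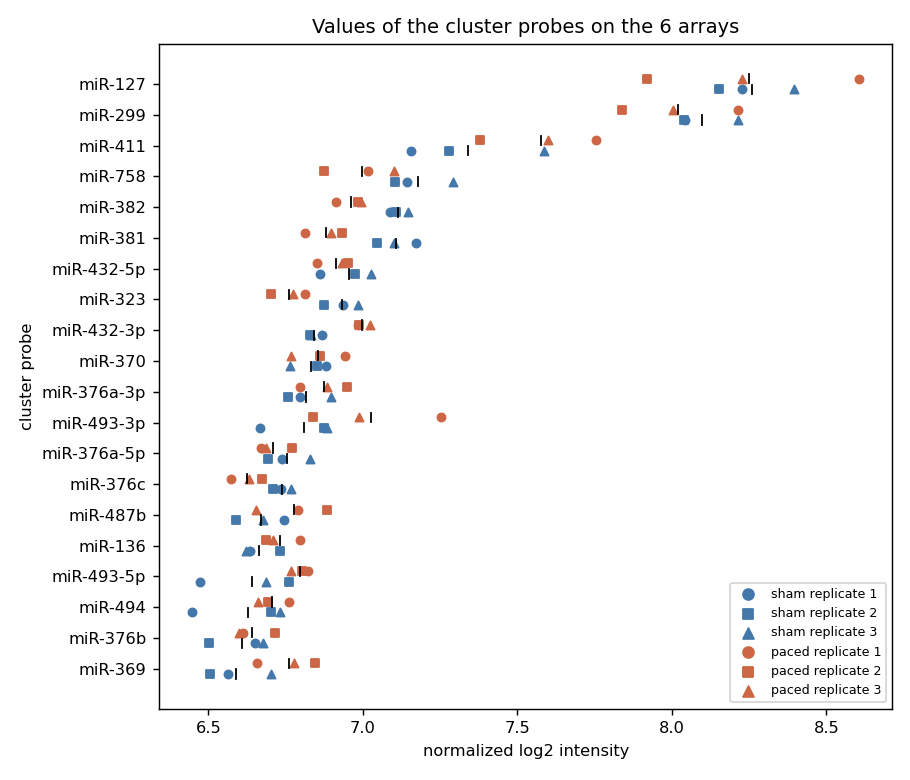
Normalized log2 intensity of each cluster probe on the 6 arrays, with sham animals in blue, paced animals in orange and a black line at each group mean (n = 3). The values of miR-127, miR-299 and miR-411 overlapped between the groups.

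The groups did not overlap for 7 members, 2 above and 5 below the sham animals. Over all probes the share without overlap was 17.4% (6.83% higher and 10.6% lower). None of these 7 members was well above background on any array, so that no fold is given and the values below describe signals within the background. Their differences ranged from -0.23 to 0.16 on the log2 scale.

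miR-381, miR-323 and miR-432-3p were the members at or under the unadjusted threshold. Of these, miR-381 had the lowest p. The paper lists it among the miRNAs lower in the paced LA, although the p given there is above the paper's threshold of 0.05. The fold change given there is not compared with the normalized values here. The values of miR-381 were 7.17, 7.05 and 7.10 in the sham replicates and 6.81, 6.93 and 6.90 in the paced replicates. Every paced value lay below every sham value, and the difference was -0.23 (SE 0.07, 95% interval -0.40 to -0.06, adjusted p = 0.309). The sign held without any 1 of the animals, at -0.26 to -0.19. It turned positive, at 0.053, when the background was subtracted plainly. Without normalization and with the scaling to the detected probes the difference was 0.22 and 0.38, where the median probe was shifted by 0.27 and 0.44. Relative to either shift miR-381 stood at -0.053. These settings differ only by a constant per array, so that this value is the same by construction. The authors' processed intensities of miR-381 were 28.9, 17.6 and 32.8 in the sham and 2.91, 9.53 and 17.1 in the paced replicates. Their log2 difference was -1.71 (limma, adjusted p = 0.521), with each intensity below the median probe of its array.

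For miR-323 the values were 6.93, 6.87 and 6.98 in the sham replicates and 6.81, 6.70 and 6.77 in the paced replicates. The paced values were the lower ones throughout, with a difference of -0.17 (SE 0.07, adjusted p = 0.445). This difference turned positive under the same 3 alternatives as that of miR-381. Relative to the shifts of the last 2, miR-323 stood at -0.037, again the same value by construction. The first 9 bases of its target were also present in the target of miR-32.

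For miR-432-3p, a miRNA of a precursor within RTL1, the values were 6.87, 6.83 and 6.83 in the sham replicates and 6.98, 6.99 and 7.02 in the paced replicates. The paced values lay closely together above the sham values. The difference was 0.16 (SE 0.06, 95% interval 0.01 to 0.30, adjusted p = 0.414) and was positive under all alternatives in which it was tested. The authors' processed intensities of this probe were 3.35, 3.61 and 5.58 in the sham and 12.4, 17.6 and 16.5 in the paced replicates, a log2 difference of 1.91 (limma, adjusted p = 0.156). All 6 of these intensities were far below the median probe of their array, at 48.7 to 59.2 units. The other arm, miR-432-5p, differed by -0.04 (SE 0.07, adjusted p = 0.864), and its groups overlapped.

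miR-382, miR-758 and miR-376c were lower in each paced animal than in any sham animal. For miR-382 the values were 7.09, 7.11 and 7.14 in the sham replicates and 6.91, 6.98 and 6.99 in the paced replicates, a difference of -0.15 (SE 0.06, adjusted p = 0.467). For miR-758 they were 7.14, 7.10 and 7.29 against 7.02, 6.87 and 7.10, a difference of -0.18 (SE 0.09, adjusted p = 0.488), with the nearest values of the groups barely apart. For miR-376c they were 6.73, 6.71 and 6.77 against 6.57, 6.67 and 6.63, a difference of -0.11 (SE 0.06, adjusted p = 0.553). All 3 differences turned positive without normalization and with the scaling to the detected probes, where the median probe was shifted by 0.27 and 0.44. Relative to either shift, again the same by construction, miR-376c stood at -0.042, miR-382 at 0.032 and miR-758 at 0.0082. With plain subtraction, which moved the median probe to 0.027, miR-382 and miR-376c were positive as well. miR-376b, whose target differs from that of miR-376c by the single base given above, differed by 0.03 (SE 0.08), with overlapping groups. miR-411, which shares its 3′ end with miR-758, differed in the opposite direction, and whether these differences are unequal was not tested.

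For miR-493-5p, whose gene lies between MEG3 and RTL1, the values were 6.47, 6.76 and 6.68 in the sham replicates and 6.82, 6.80 and 6.77 in the paced replicates. The paced values were higher, but the difference of 0.16 (SE 0.09, adjusted p = 0.541) stood beside a low value of sham replicate 1. On that array its 3 spots in the dim first rows read 87.2 to 104 units and its other 6 spots 168 to 172. The same held for its other arm, miR-493-3p, with 98.8 to 107 and 176 to 200 units, and for miR-494, with 83.7 to 123.9 and 160 to 172 units. With the spots of these rows left out, the differences of miR-493-5p, miR-493-3p and miR-494 went from 0.16, 0.22 and 0.08 to 0.10, 0.12 and -0.021. Corrected against the nearest empty spots they were -0.12, -0.059 and -0.18. With the spots of the dim rows left out, the groups of miR-493-5p still did not overlap. Its values were then 6.74, 6.66 and 6.73 in the sham replicates and 6.85, 6.80 and 6.78 in the paced replicates.

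The remaining 10 members had values between 6.45 and 7.25 and overlapping groups. They are miR-136, miR-369, miR-370, both arms of miR-376a, miR-376b, miR-432-5p, miR-487b, miR-493-3p and miR-494. Of these, 8 had a higher and 2 a lower mean in paced animals, with differences from -0.04 to 0.22 and adjusted p values from 0.495 to 0.912 in limma. Over all 20 members, the 95% intervals reached from -0.42 at the lowest to 0.58 at the highest, and 17 of them included 0.

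**Figure D4:**
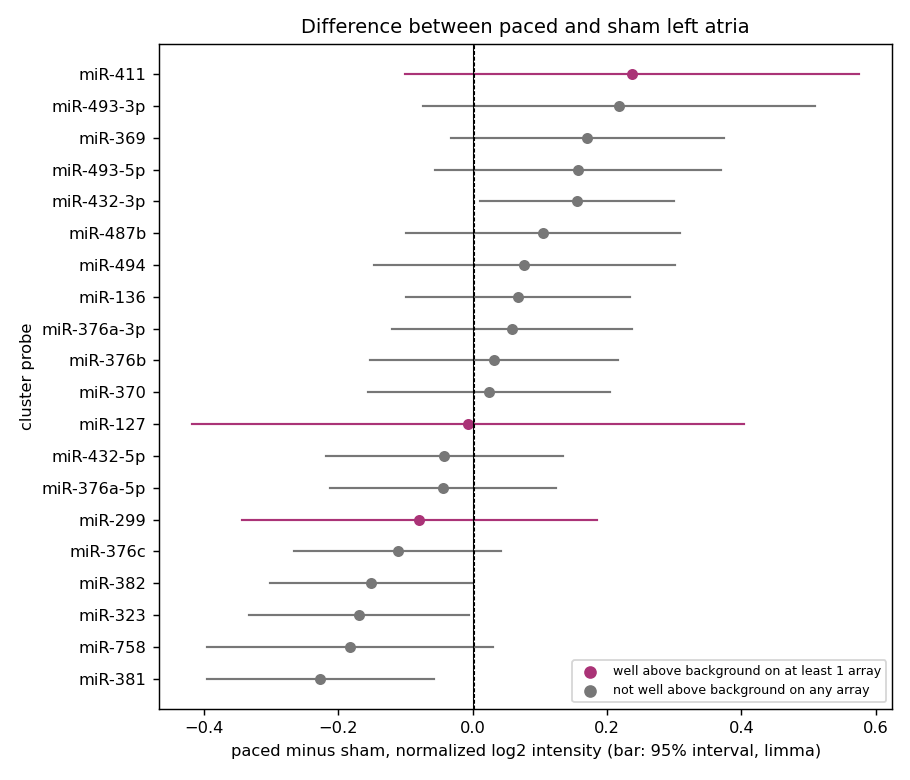
Difference between paced and sham animals in normalized log2 intensity for each cluster probe, with 95% intervals from limma (n = 3 in each group), and the median of all probes as a dashed line at 0.00. The intervals of 17 probes include 0, and no difference passed an adjusted p of 0.05.

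The split of the cluster into higher and lower members differed with the background correction and with the scaling of the arrays. With plain subtraction of the background 17 members were higher and 3 lower, with a median difference of 0.032 over the members and 0.027 over all probes. When the arrays were scaled to a common median of their detected probes, those well above background on every array, all 20 members were higher in paced animals. Their median difference was then 0.59, and 18 of them had a p at or under 0.05, with 15 below it after adjustment. Of all probes, 56.2% had such a p under this scaling and 53.1% passed after adjustment, and the median over all probes was shifted by 0.44. Relative to that shift, 15 members were higher and 5 lower, with a median of 0.15. Without normalization between arrays all 20 members were higher as well, with a median difference of 0.42 and a shift of all probes of 0.27. The empty-spot signal was higher on each paced array than on any sham array, and its part in these differences was not tested. In the authors' processed values, 10 members were higher and 10 lower, and the 17 members not well above background on any array had intensities from 0.00226 to 46.7 units, all below the median of their array.

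**Figure D5:**
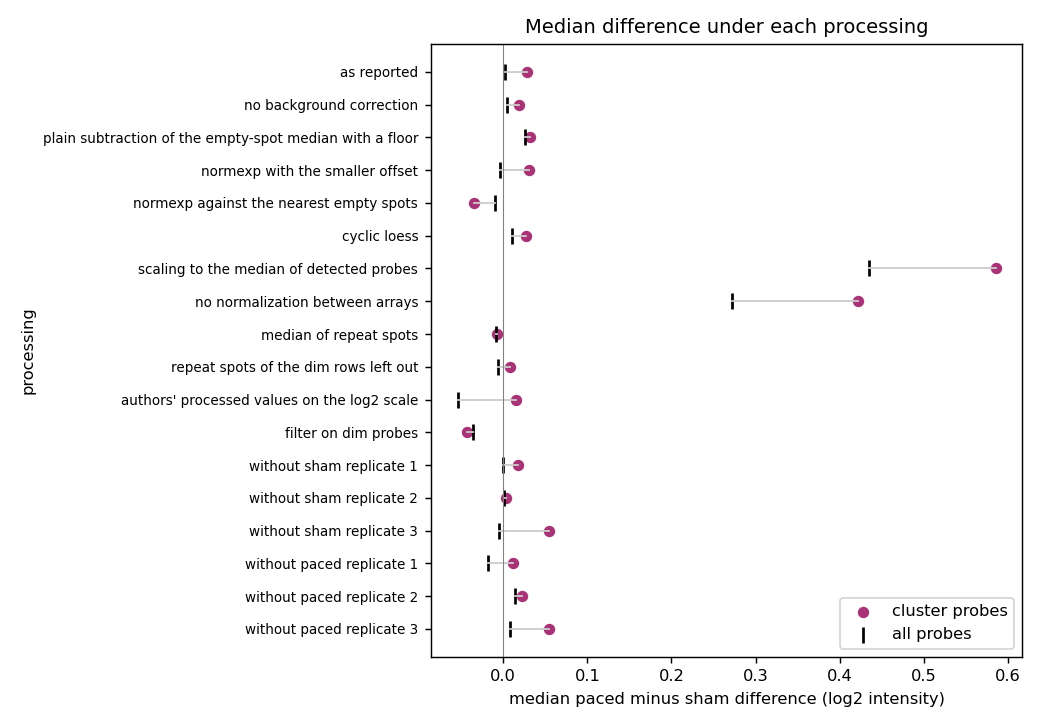
Median difference between paced and sham animals over the cluster probes (points) and over all probes (bars) under each processing, in log2 intensity. Scaling to the detected probes and no normalization moved both medians to between 0.27 and 0.59, and under the other settings both lay between -0.0541 and 0.0543.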

How the data were processed

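LA RNA of 3 sham and 3 paced pigs was measured on 6 one-channel arrays, grouped by the sample titles. The deposited scanner files hold the median intensity of each of 3968 spots, on a linear scale and not corrected or normalized. The authors also deposited processed intensities, 1 per probe and array, by steps not given in the sources used here, which served as an alternative.

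Scanner values were corrected with normexp in limma 3.58.1 (R 4.3.3; offset 50, fitted on all spots). The 1070 control spots were then left out. The 2898 pig spots were quantile-normalized, transformed to log2 and averaged over 9 repeats. Groups were compared with lmFit and eBayes, with Benjamini-Hochberg adjusted p values over all 322 probes. The small number of arrays limits the precision. Figures used Python 3.11.15 and matplotlib 3.10.9.

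The cluster's members and the lists of markers and of further miRNAs of the region were chosen with earlier results of these data known. Full values are given for members well above background on any array, with p at or under 0.05 or without overlap, and the others are summarized. Sequences are the array's target sequences. Alternatives changed the background correction, normalization, repeat summary, filter, values, test, replicate block and animals.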

Additional observations from a re-analysis of the deposited data

How the results depend on the processing

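No member passed the adjusted threshold under any alternative except the scaling to the detected probes (15, with 53.1% of all probes). The count at an unadjusted p of 0.05, 3 as reported, was 18 with that scaling (56.2% of all probes, against 10.6% as reported), 5 with the methods' t-test on the log2 values (12.1%), 1 without normalization (4.66%), with the processed values in limma (9.63%) or the methods' t-test (9.01%) and with the replicate number as a block (10.2%), and 0 with the filter on dim probes, which left 2 members (3.97%). Leaving out 1 animal gave 0 (sham replicate 1, 9.01%) to 3 (paced replicate 1, 21.1%, with 9 probes but no member after adjustment), with 1 without sham replicate 2 or paced replicate 3 (5.90% each). The 7 members without overlap became 17 with the scaling, 4 without normalization, 2 with plain subtraction or the processed values, and 0 with the filter. With an animal left out, where fewer values had to lie apart, the count was 8 to 10. The share of all probes without overlap was 17.4% as reported and was not computed under these alternatives. These counts are therefore not read as a result about the cluster. The median difference was 0.59 with the scaling, 0.42 without normalization, -0.034 against the nearest empty spots, -0.0079 with the median of repeat spots and -0.043 with the filter, and 0.0032 to 0.054 with an animal left out. The number of member signals well above background over the 6 arrays, 11 as reported, was 14 at 2 SD and 17 against the nearest empty spots. Samples with the same replicate number did not deviate together throughout (correlations 0.17, -0.04 and 0.14), and the replicate block changed no call after adjustment.

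Signs of members named with full values changed as follows. The first 2 settings shifted all probes, by medians of 0.44 and 0.27. The cause of the changes was not tested under any setting. With the scaling to the detected probes, miR-127, miR-299, miR-323, miR-376c, miR-381, miR-382 and miR-758 were at 0.26, 0.28, 0.40, 0.39, 0.38, 0.47 and 0.44, and without normalization at 0.095, 0.11, 0.24, 0.23, 0.22, 0.30 and 0.28. Among the 15 members that the scaling took past the adjusted threshold were also miR-382 and miR-758, and miR-411, miR-432-3p, miR-493-3p, miR-493-5p and miR-494, at 0.77, 0.76, 0.85, 0.75 and 0.65. With plain subtraction, miR-323, miR-376c, miR-381 and miR-382 were at 0.028, 0.031, 0.053 and 0.030. Against the nearest empty spots, miR-127, miR-493-3p, miR-493-5p and miR-494 were at 0.053, -0.059, -0.12 and -0.18. Cyclic loess gave 0.038 for miR-127 and 0.0092 for miR-299. The processed values gave 0.058 for miR-127 on the log2 scale and 12.6 units in the methods' t-test. Without the spots of the dim rows, miR-494 was at -0.021. With an animal left out, miR-127 ranged from -0.18 to 0.16, miR-299 from -0.18 to 0.010 and miR-494 from -0.013 to 0.13. Of the summarized members, miR-136, miR-370, miR-376a-3p, miR-376a-5p, miR-376b and miR-432-5p also changed sign under at least 1 alternative, and miR-369 and miR-487b under none.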
